A study of Mus musculus with 6 samples.

Results

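The prostaglandin genes described here are 10 of the 20564 named genes measured: the cyclooxygenase genes Ptgs1 and Ptgs2, the synthase genes Ptges, Ptges2 and Ptgis, the breakdown gene Hpgd, and the prostaglandin E2 receptor genes Ptger1, Ptger2, Ptger3 and Ptger4. They were chosen by the symbol given to each probe set, whose name is formed from a gene ID, and all 10 were found. RNA came from the corpus, the part of the stomach whose glands secrete acid. The mice were wildtype Balb/c females, 8 to 12 weeks old. In the dexamethasone group (3 arrays) the mice had drunk water with dexamethasone (dex), a synthetic glucocorticoid, at 50 mg/l over 3 days, with the water changed on day 2. The control group (3 arrays) was left untreated. The labels call the arrays of a group biological replicates and do not say how many mice gave each RNA sample. Values are log2 expression from Affymetrix arrays, and a difference of 1 on this scale is a doubling.

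Prostaglandins are lipid signals made on demand from arachidonic acid, which phospholipases free from membranes. Cyclooxygenases turn it into prostaglandin H2, terminal synthases turn that into prostaglandin E2, prostacyclin and their relatives, and a dehydrogenase and reductases inactivate the products. In the stomach, prostaglandin E2 acts through its receptors to favour mucus and bicarbonate secretion and blood flow and to restrain acid, and drugs that block cyclooxygenases can injure the mucosa. Glucocorticoids are known to repress Ptgs2 in inflamed tissues and to induce annexin A1, a restraint on phospholipase A2.

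The promoters of Ptgs1, Ptgs2 and Hpgd are shown because both cyclooxygenase genes had groups that did not overlap and Hpgd encodes the enzyme of the opposite step. The groups of the receptor gene Ptger2 did not overlap either, and its promoter is not shown. Each is the 250 bases before the start of transcription in RefSeq, build GRCm38.p6, plus strand. Capitals mark matches, on either strand, to the motifs named after the sequences.
Ptgs1, chr2:36230176-36230425: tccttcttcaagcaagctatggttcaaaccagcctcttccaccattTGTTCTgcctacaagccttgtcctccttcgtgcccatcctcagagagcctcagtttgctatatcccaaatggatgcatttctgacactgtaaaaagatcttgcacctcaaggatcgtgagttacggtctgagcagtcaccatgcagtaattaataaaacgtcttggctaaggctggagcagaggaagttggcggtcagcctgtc
Ptgs2, chr1:150099781-150100030: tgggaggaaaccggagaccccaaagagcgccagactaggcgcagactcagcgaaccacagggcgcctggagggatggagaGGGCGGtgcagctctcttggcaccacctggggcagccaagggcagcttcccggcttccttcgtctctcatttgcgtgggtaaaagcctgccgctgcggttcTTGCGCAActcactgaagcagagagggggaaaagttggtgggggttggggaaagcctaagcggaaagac
Hpgd, chr8:56294302-56294551: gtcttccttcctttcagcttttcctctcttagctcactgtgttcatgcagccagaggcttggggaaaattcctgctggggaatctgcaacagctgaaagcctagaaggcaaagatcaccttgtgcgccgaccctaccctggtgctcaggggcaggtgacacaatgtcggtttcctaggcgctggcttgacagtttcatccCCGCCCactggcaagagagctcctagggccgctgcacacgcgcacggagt
An arm of the glucocorticoid response element, AGAACA, lies in the Ptgs1 window 204 to 199 bases before the start, on the opposite strand. It is also in the windows of Ptges and Ptger2, and in 16.1% of all 32851 RefSeq windows of this length. The palindrome TTGCGCAA, bound by C/EBP factors, is in the Ptgs2 window alone of the 8 members that have a window. It lies 69 to 62 bases before the start and is found in 0.164% of all windows. The GC box, GGGCGG, is in 5 of these 8 (Ptgs2, Ptges, Hpgd, Ptger3 and Ptger4) and in 32.7% of all windows. The whole glucocorticoid response element, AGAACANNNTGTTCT, which contains the arm, is in 0 of the 8 and in 0.00913% of all windows. A match is a match of letters and shows no binding.

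Across the series, Fkbp5, a known glucocorticoid target, was the only gene taken as a check of the treatment. It rose 3.68-fold (adjusted p = 0.0150 in limma, a linear model fitted to all genes), with 10.26 to 11.25 in dexamethasone arrays and 8.62 to 9.26 in control arrays. Its call was lost without control replicate 3 (adjusted p = 0.0960) or dexamethasone replicate 2 (0.0880). Corpus markers were bright: the mean over 11 of them was 12.72 to 12.89 in dexamethasone arrays and 12.86 to 12.99 in control arrays. Markers of the squamous epithelium that lines the forestomach, next to the corpus, split both groups. Their mean over 14 genes, of which 1 (Krt6a) rose, was 9.90, 9.92 and 8.33 in dexamethasone replicates 1, 2 and 3, against 8.07, 9.56 and 8.21 in control replicates 1, 2 and 3. The group means of the list differed by 0.77, and all 14 genes had a positive log2 change, from 0.060 to 1.75. Smooth muscle markers moved with the groups: of 11, 2 rose (Actg2 and Cnn1), and the mean of the list was 11.68, 11.65 and 11.24 in dexamethasone replicates, against 11.00, 11.18 and 10.90 in control replicates. Its group means differed by 0.50, and all 11 genes had a positive log2 change. The means of the other marker lists differed by 0.17 for 8 fibroblast genes (Pdgfra rose), 0.14 for 9 macrophage genes (Cd163 rose), 0.097 for 7 endothelial genes, -0.021 for 9 tuft cell genes and -0.023 for 8 mast cell genes. Genes within these lists went both ways. Of the macrophage genes 5 had a positive log2 change and 4 a negative one, from -0.25 to 1.14 (Cd163). Of the fibroblast genes 7 had a positive change and 1 a negative one, from -0.53 to 0.57 (Pdgfra).

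The comparison of dexamethasone with control asks which of these genes differ in level in the corpus under the steroid. None of the 10 members passed the test: 0 were higher and 0 lower at an adjusted p under 0.05 (limma, Benjamini-Hochberg over all 20564 genes), where 1.89% of all genes passed. At an unadjusted p under 0.05 there were 2 higher (Ptgs1 and Hpgd) and 1 lower (Ptger3), against 13.1% of all genes in either direction. The groups did not overlap for 3 of 10: Ptgs1 and Ptgs2 were higher in every dexamethasone array and Ptger2 was lower. Among all genes 18.3% had groups that did not overlap, 8.82% higher and 9.47% lower. The median log2 change of the members was 0.12, beside 0.0023 over all genes, and their changes ran from -0.29 (Ptger3) to 0.54 (Hpgd).

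Ptgs1 encodes the cyclooxygenase that many tissues make at rest. Its log2 expression was 9.85, 9.75 and 9.64 in dexamethasone replicates 1, 2 and 3, against 9.00, 9.41 and 9.23 in control replicates 1, 2 and 3. Every dexamethasone array lay above every control array. The nearest arrays across the groups were dexamethasone replicate 3 and control replicate 2. The means were 9.75 ± 0.11 in dexamethasone and 9.22 ± 0.21 in control (SD, n = 3 each). The log2 change of 0.53 (SE 0.11, 95% interval 0.27 to 0.79, 1.44-fold) had an adjusted p of 0.0668 and so missed the threshold. Leaving out control replicate 2 took it past (log2 change 0.63, adjusted p = 0.0479), as did weighting the arrays (adjusted p = 0.00737), and over all arrays left out in turn the change ran from 0.42 to 0.63. The array with the most smooth muscle signal in each group, dexamethasone replicate 1 and control replicate 2, was also the one with the most Ptgs1. With the muscle mean as a covariate, a choice made after seeing the data, the log2 change of Ptgs1 was 0.28 (adjusted p = 0.686), and the part of muscle content was not tested further. The muscle means of the groups did not overlap, and with this covariate 56 of all genes passed, against 388 without it. In whole tissue, a change in the number of cells of a type and a change in RNA per cell cannot be told apart.

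Ptgs2 encodes the inducible cyclooxygenase of inflammation and repair. It stood at 8.99, 9.12 and 9.01 in dexamethasone replicates 1, 2 and 3, against 8.10, 8.81 and 8.91 in control replicates 1, 2 and 3. The dexamethasone arrays lay close together and above the controls, while control replicate 1 was far below the other two controls. The log2 change was 0.43 (SE 0.19, 95% interval -0.019 to 0.89, adjusted p = 0.406). It was 0.18 without control replicate 1 (adjusted p between 0.237 and 0.820 over all alternatives). The list of Ptgs2 regulators, drawn up beside the members, held among others the kinase and RNA-decay restraints Dusp1 and Zfp36, the NF-kappa B inhibitor Nfkbia, the cytokines Il1b and Tnf, the C/EBP factor Cebpb and the glucocorticoid receptor Nr3c1. Of its 9 genes 0 passed the test (limma), and 3 had an unadjusted p under 0.05, each lower. The median log2 change of the list was -0.024. Nr3c1 had the smallest p of that list. It stood at 9.62, 9.60 and 9.66 in dexamethasone arrays, against 9.79, 9.78 and 9.81 in controls (log2 change -0.16, SE 0.055, adjusted p = 0.246). Il1b, the gene of interleukin 1 beta, followed with a log2 change of -0.22 (SE 0.079, adjusted p = 0.286). For both the groups did not overlap. Dusp1 and Tsc22d3, also of that list, had log2 changes of 0.26 (SE 0.20, adjusted p = 0.643) and 0.33 (SE 0.22, adjusted p = 0.590). Their groups overlapped. Of the 9 genes, 4 had a positive change and 5 a negative one.

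**Figure D1:**
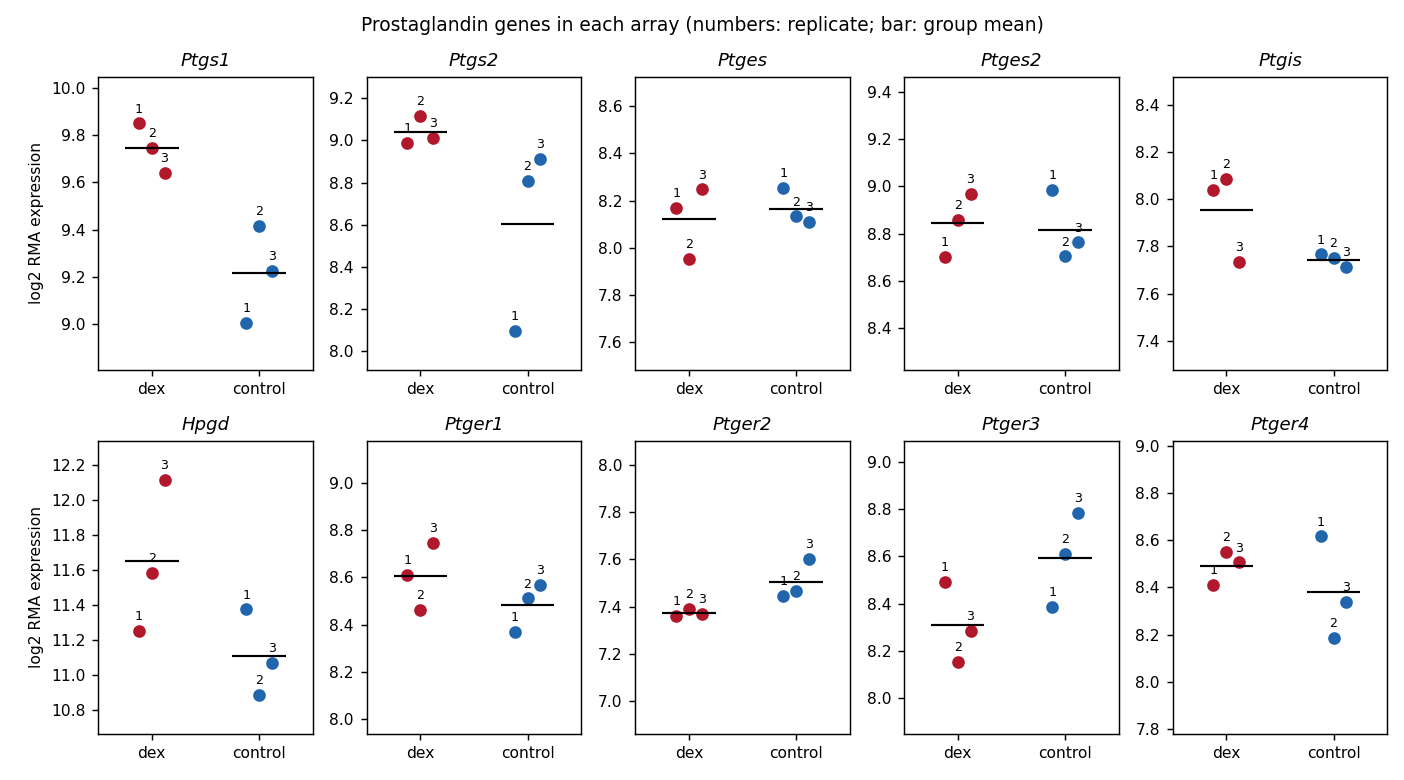
Log2 RMA expression of the 10 prostaglandin genes, 1 point per array labelled with its replicate number, dexamethasone (dex, red) left of control (blue), bars at the group means; each panel has its own axis. The groups do not overlap for Ptgs1, Ptgs2 and Ptger2, control replicate 1 is low for Ptgs2 at 8.10, and dexamethasone replicate 3 is high for Hpgd at 12.11.

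The terminal synthases act on prostaglandin H2. Ptges, the inducible membrane-bound prostaglandin E synthase, had 8.17, 7.95 and 8.25 in dexamethasone replicates 1, 2 and 3, against 8.25, 8.13 and 8.11 in control replicates 1, 2 and 3. The groups overlapped, and the log2 change of -0.042 (SE 0.089, 95% interval -0.25 to 0.17, adjusted p = 0.901) was smaller than the SD of either group. Ptges2, a second prostaglandin E synthase, had 8.70, 8.86 and 8.97 in dexamethasone replicates, against 8.99, 8.70 and 8.76 in control replicates. The same held there, with a log2 change of 0.026 (SE 0.099, 95% interval -0.20 to 0.26, adjusted p = 0.949).

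Ptgis encodes prostacyclin synthase, an enzyme of vessel walls and smooth muscle. It had 8.04, 8.09 and 7.73 in dexamethasone replicates 1, 2 and 3, against 7.77, 7.75 and 7.71 in control replicates 1, 2 and 3. Dexamethasone replicates 1 and 2 stood above all controls, while replicate 3 lay within their range. The log2 change was 0.21 (SE 0.097, 95% interval -0.015 to 0.44, adjusted p = 0.420), and it passed with array weights (0.30, adjusted p = 0.0457). Dexamethasone replicates 1 and 2 were also the arrays with the most smooth muscle signal, and with the muscle covariate the log2 change was -0.094 (adjusted p = 0.892). The muscle means of the groups did not overlap, so this covariate cannot be told apart from treatment, and the part of muscle content was not tested. Of the 7 other synthase genes listed, which make prostaglandins D and F and thromboxane or are the cytosolic E synthase, 0 passed the test, and 0 had an unadjusted p under 0.05 (limma). Their changes ran from -0.13 to 0.14. Ptgds and Tbxas1, the prostaglandin D and thromboxane synthases, had the smallest p, with log2 changes of 0.14 and 0.12 (adjusted p = 0.534 and 0.635).

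Hpgd encodes the dehydrogenase that starts the inactivation of prostaglandins, and its levels spread most among the members (SD over the 6 arrays 0.43). It had 11.25, 11.59 and 12.11 in dexamethasone replicates 1, 2 and 3, against 11.38, 10.89 and 11.07 in control replicates 1, 2 and 3. The groups overlapped, as control replicate 1 lay above dexamethasone replicate 1. The means were 11.65 ± 0.43 in dexamethasone and 11.11 ± 0.25 in control (SD, n = 3 each). The log2 change of 0.54 (SE 0.22, 95% interval 0.039 to 1.04, 1.45-fold) had an adjusted p of 0.337. It was 0.31 without dexamethasone replicate 3. Within each group, the array with the highest Hpgd had the lowest mean of squamous markers: dexamethasone replicate 3 and control replicate 1. With the squamous mean as a covariate the log2 change was 0.81 and passed the test (adjusted p = 0.0249), and with the muscle mean it was 1.28 (adjusted p = 0.101). All 14 squamous markers had a positive change themselves, and the part of tissue content was not tested.

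**Figure D2:**
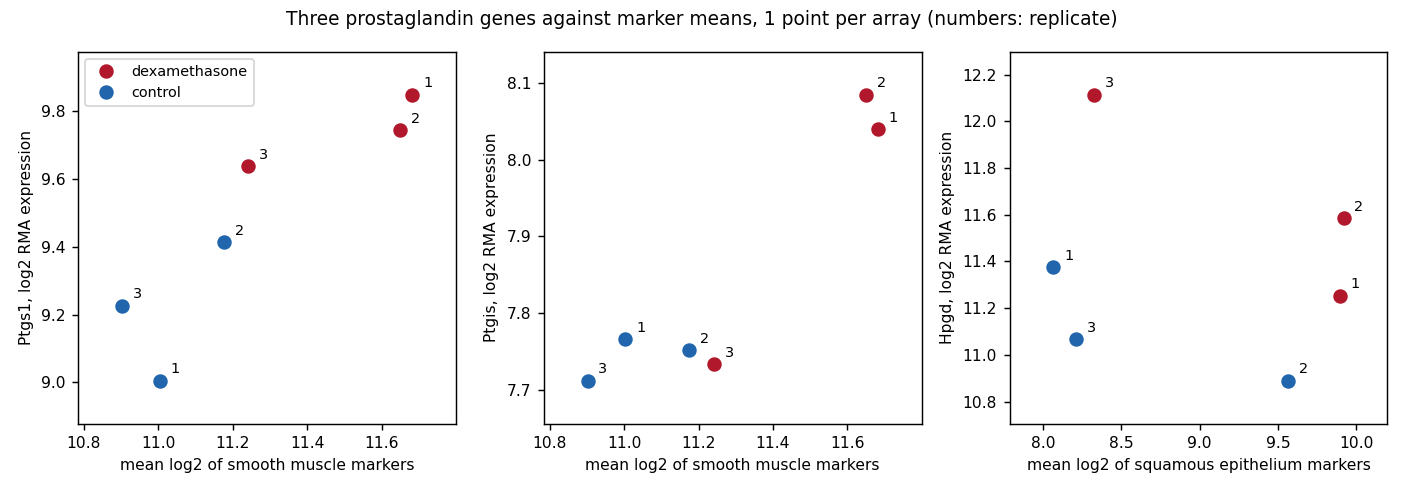
Log2 RMA expression of Ptgs1 and Ptgis against the mean of 11 smooth muscle markers, and of Hpgd against the mean of 14 squamous epithelium markers; 1 point per array with its replicate number, dexamethasone in red and control in blue. Dexamethasone replicates 1 and 2, with muscle means of 11.68 and 11.65, have the highest Ptgs1 and Ptgis, and dexamethasone replicate 3, with a squamous mean of 8.33, has the highest Hpgd.

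The 4 receptors for prostaglandin E2 differ in the signal they pass on. Ptger1, whose receptor raises calcium, had 8.61, 8.46 and 8.75 in dexamethasone replicates 1, 2 and 3, against 8.37, 8.51 and 8.57 in control replicates 1, 2 and 3. Its log2 change was 0.12 (SE 0.091, 95% interval -0.087 to 0.33, adjusted p = 0.641), and the groups overlapped. Ptger2, whose receptor raises cyclic AMP, had 7.36, 7.39 and 7.37 in dexamethasone replicates, against 7.45, 7.47 and 7.60 in control replicates. All dexamethasone arrays lay below all controls by a small margin, with a log2 change of -0.13 (SE 0.064, 95% interval -0.28 to 0.016, adjusted p = 0.445). On every array the signal of this probe set was below the array's median, which ranged from 7.94 to 7.98, and array summaries compress differences of dim probe sets.

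Ptger3 encodes the receptor that lowers cyclic AMP and restrains acid secretion by parietal cells. It had 8.49, 8.15 and 8.28 in dexamethasone replicates 1, 2 and 3, against 8.39, 8.61 and 8.79 in control replicates 1, 2 and 3. Dexamethasone replicates 2 and 3 lay below every control, and replicate 1 lay between control replicates 1 and 2. The log2 change of -0.29 (SE 0.12, 95% interval -0.57 to -0.00029) had an adjusted p of 0.380, and it passed with array weights (-0.45, adjusted p = 0.0384). Ptger4, the other receptor that raises cyclic AMP, had 8.41, 8.55 and 8.51 in dexamethasone replicates, against 8.62, 8.18 and 8.34 in control replicates. The groups overlapped, with a log2 change of 0.11 (SE 0.11, 95% interval -0.15 to 0.37, adjusted p = 0.746).

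**Figure D3:**
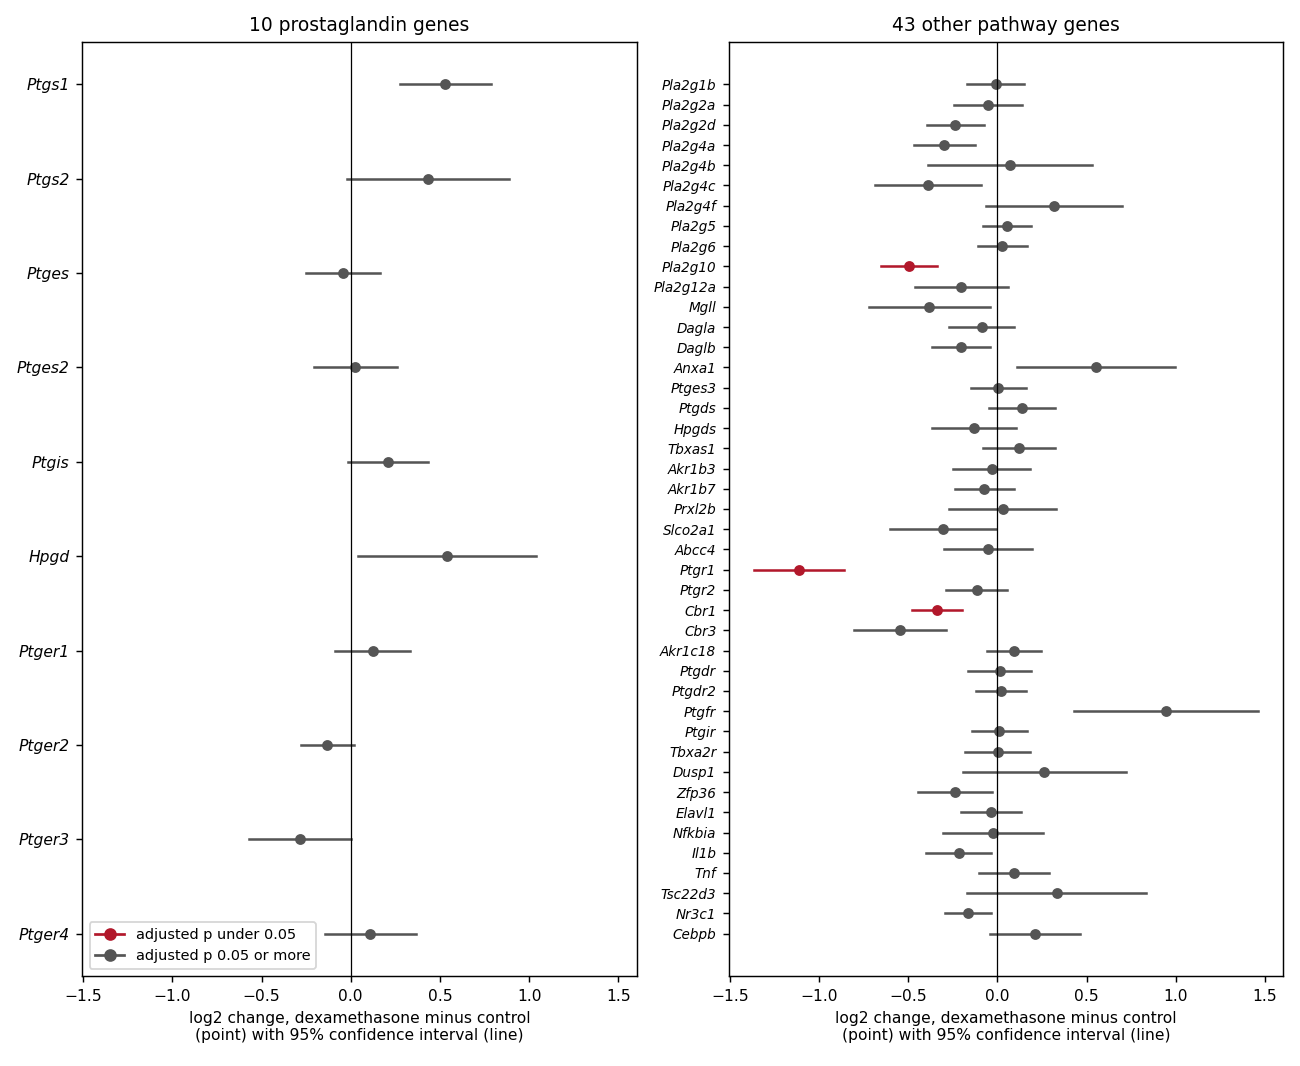
Log2 change, dexamethasone minus control, on the horizontal axis, with its 95% confidence interval from limma, for the 10 prostaglandin genes (left) and the 43 other pathway genes measured (right); red marks an adjusted p under 0.05. No member is red, and the 3 red genes at right, Pla2g10, Ptgr1 and Cbr1, lie below 0 at -0.50, -1.11 and -0.34.

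The rest of the pathway held the changes that passed. Of 44 other genes listed 43 were measured, of which 0 rose, 3 fell and 40 did not pass, against 0.812% of all genes higher and 1.07% lower. Their median log2 change was -0.032. Of 7 measured genes of transport and breakdown, 2 fell and 5 did not pass. Ptgr1 encodes a reductase that acts after Hpgd on the keto-prostaglandins and also inactivates leukotriene B4. It had 11.05, 11.13 and 10.72 in dexamethasone replicates 1, 2 and 3, against 12.03, 12.04 and 12.15 in control replicates 1, 2 and 3. The groups were far apart relative to their spread. Ptgr1 fell 2.16-fold (log2 change -1.11, SE 0.11, 95% interval -1.36 to -0.86, adjusted p = 0.00375). The call held whichever of the 6 arrays was left out (highest adjusted p 0.0365).

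Cbr1, a carbonyl reductase whose human form can convert prostaglandin E2 to prostaglandin F2 alpha, fell 1.26-fold (log2 change -0.34, SE 0.060, adjusted p = 0.0388). It had 11.90, 11.81 and 11.90 in dexamethasone replicates, against 12.26, 12.18 and 12.18 in control replicates, with no overlap. That call was lost whichever of the 6 arrays was left out (adjusted p from 0.0524 to 0.199). Its close paralog Cbr3, named after its values were seen, differed by -0.54 on the log2 scale (SE 0.11, adjusted p = 0.0630), and passed without control replicate 2 (adjusted p = 0.0452) and with array weights (0.0134). Probes of such paralogs can pick up each other's transcripts. Slco2a1, the importer that carries prostaglandins to Hpgd inside the cell, also named after its values were seen, differed by -0.30 on the log2 scale (SE 0.13, adjusted p = 0.367).

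Of 15 genes that release arachidonic acid or restrain its release, 1 fell and 14 did not pass. Pla2g10, a secreted phospholipase A2, fell 1.41-fold (log2 change -0.50, SE 0.067, adjusted p = 0.0150). It had 9.18, 9.10 and 9.11 in dexamethasone replicates, against 9.65, 9.52 and 9.69 in control replicates. Its call was lost without control replicate 3 (adjusted p = 0.0937), dexamethasone replicate 1 (0.0575) or dexamethasone replicate 2 (0.0967). Anxa1, the annexin gene, and Pla2g4a, the cytosolic phospholipase A2, were named after their values were seen. Anxa1 had 11.27, 11.33 and 10.65 in dexamethasone replicates 1, 2 and 3, against 10.56, 10.74 and 10.29 in control replicates 1, 2 and 3. Its log2 change was 0.55 (SE 0.19, adjusted p = 0.259), and it passed without dexamethasone replicate 3 (0.77, adjusted p = 0.0318) and with array weights (0.81, adjusted p = 0.0169). Dexamethasone replicates 1 and 2 and control replicate 2, the arrays highest in Anxa1 within their groups, were also those highest in the squamous and muscle marker means. The log2 change of Anxa1 was 0.31 with the squamous covariate (adjusted p = 0.260) and -0.20 with the muscle covariate (adjusted p = 0.667). The part of tissue content was not tested. Pla2g4a differed by -0.30 on the log2 scale (SE 0.073, adjusted p = 0.114), with groups that did not overlap.

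Of the 5 receptors for other prostanoids, 0 passed the test, and 1 was higher at an unadjusted p under 0.05 (limma). That was Ptgfr, the prostaglandin F receptor, with 8.30, 8.38 and 9.22 in dexamethasone replicates 1, 2 and 3, against 7.74, 7.68 and 7.65 in control replicates 1, 2 and 3. The dexamethasone arrays all lay above the controls, replicate 3 by the most. The control values were dim, each below the median of its array (7.94, 7.96 and 7.94). The log2 change of 0.95 (SE 0.22, 95% interval 0.43 to 1.46) had an adjusted p of 0.0990. It passed without dexamethasone replicate 3 (0.65, adjusted p = 0.00769), with array weights (0.81, adjusted p = 0.0190) and with the squamous (1.19, adjusted p = 0.0165) or muscle covariate (1.72, adjusted p = 0.0460). Ptgdr2, a prostaglandin D receptor, had the next smallest p, with a log2 change of 0.022 (adjusted p = 0.927).

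**Figure D4:**
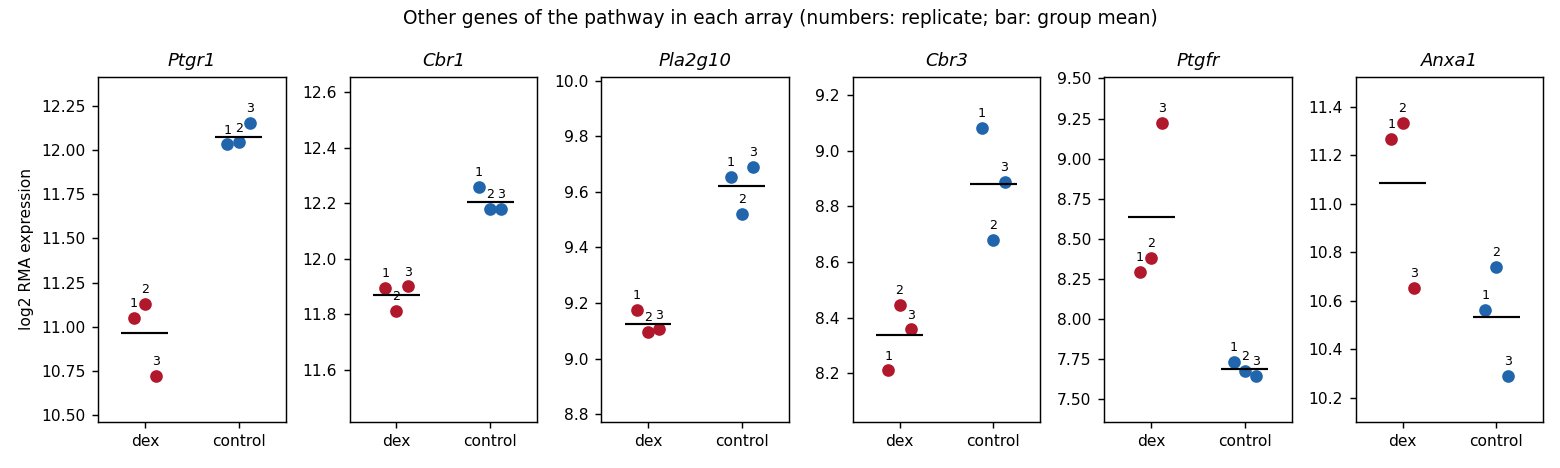
Log2 RMA expression of 6 other genes of the pathway, 1 point per array labelled with its replicate number, dexamethasone (dex, red) left of control (blue), bars at the group means; each panel has its own axis. Ptgr1, Cbr1 and Pla2g10 passed the test, while Cbr3, Ptgfr and Anxa1 had adjusted p values of 0.0630, 0.0990 and 0.259.

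Hpgd and Ptgs2 varied most of the members over the 6 arrays, so the genes nearest to each in pattern were sought among 872 genes. These had an SD of at least 0.3, and genes with a predicted or provisional name were left out. Nearest to Hpgd by Pearson correlation over the 6 arrays were Tmed6 (r = 0.979), Gprc5a (0.977), Trim50 (0.975) and Rnase1 (0.972), and 36 genes had an r over 0.9. Nearest to Ptgs2 were Ceacam1 (0.965), Ms4a4a (0.900), Scnn1a (0.892) and Krt6b (0.881), and 1 gene had an r over 0.9. Ceacam1 was low in control replicate 1, at 7.62, as Ptgs2 was, against 8.63 to 8.87 on the other 5 arrays. These correlations rest on 6 arrays that share their groups and are descriptions only. None of the 8 genes passed the test of dexamethasone against control.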

How the data were processed

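The authors deposited RMA expression values (robust multi-array average) on the log2 scale, with a value for each probe set on each array. The submitters' processing notes list R 2.9, limma and RMA and say nothing of their use. The chip definition's version is not given in the sources used here. RMA usually equalises the arrays, so changes are relative to the bulk of genes. The number of arrays limits the precision.

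Of 20985 probe sets, 19921 were named by the platform annotation and 645 more, Ptgs1 among them, by gene ID in RefSeq (GRCm38.p6). Of 2 symbols with a second probe set the brighter was kept, which left 20564 genes. All were fitted in limma 3.58.1 (R 4.3.3, two-sided), with Benjamini-Hochberg adjustment and a threshold of 0.05. The smallest exact permutation p of 3 against 3 arrays is 0.1, so none is given. In simulated data of 20564 genes for this comparison, 80% of 50 genes changed by 0.5 were recovered and 100% of 50 changed by 1. The simulated noise was normal and independent between genes and arrays, with each gene's moderated SD in both groups. Variation shared by many genes, such as tissue content, was left out. The changed genes were drawn at random from all genes, so these shares do not apply to genes that spread widely.

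The members and lists were chosen with earlier results of these data known. The rule for names took all members, the genes of each other list past the threshold or else its 2 of smallest p, Fkbp5 and the genes nearest in pattern. Outside it, Cbr3, Slco2a1, Anxa1, Pla2g4a, Dusp1, Tsc22d3, Zfp36, Cebpb and the marker genes that rose were given with values chosen after those were seen. Some other Ptgs2 regulators are named without values to describe their list. Alternatives were the replicate block, median centring, quantile normalization, the dimmest 40% left out, another prior, array weights, all probe sets, marker covariates and each array left out. Ptgr3 was not matched.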

Additional observations from a re-analysis of the deposited data

How the results depend on the processing

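The count of members past the threshold, 0, was 3 with array weights (Ptgs1, Ptgis and Ptger3, where 1879 of all genes passed against 388), 1 with the squamous covariate (Hpgd) and 0 to 1 with an array left out. The count of other pathway genes, 3, was 12 with array weights, 3 with the squamous covariate (Ptgfr higher in place of Cbr1), 2 with the replicate block and 1 to 4 with an array left out. With the muscle covariate it was 2 (Ptgr1 lower and Ptgfr higher), and Pla2g10 lost its call (adjusted p = 0.265). With that covariate 56 of all genes passed, against 388. Ptges changed sign with the squamous covariate (0.023), with the muscle covariate (0.11) and when arrays were left out (-0.10 to 0.043), Ptges2 when arrays were left out (-0.037 to 0.11), and Ptgis and Anxa1 with the muscle covariate (-0.094 and -0.20). Ptgdr2 did so with the muscle covariate (-0.0092) and when arrays were left out (-0.0042 to 0.045). Deviations from the group means correlated at -0.28, 0.35 and 0.23 for same-numbered arrays and at -0.49 to 0.38 for others. Deviations within a group depend on one another, so these values cannot settle whether the replicate numbers pair the arrays. The block ended the call of Cbr1 (adjusted p = 0.107), as did the trend and robust prior (0.0580), the squamous covariate (0.0691) and the muscle covariate (0.441). The cause was not tested. Over all genes, 95 to 563 passed with an array left out. With 3 arrays per group, changes well above 0.5 on the log2 scale can miss the threshold where replicates spread, as for Ptgfr (0.95).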
